A study of Mus musculus with 2 samples.

Results

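Imprinted genes are transcribed from only 1 parental copy in at least some tissues. The 41 imprinted genes described here were taken from a fixed list of symbols, by matching the Ensembl identifiers of the deposited count tables to mouse gene symbols. All 41 were found once among 55414 identifiers. They lie on 10 chromosomes in 18 domains, of which 10 domains hold more than 1 listed gene. RNA was sequenced from R1E cells, a mouse embryonic stem cell line, labelled wild type and grown in serum with leukemia inhibitory factor. The Adriamycin library came from cells kept for 8 h in 0.5 µM Adriamycin, that is doxorubicin, a drug that traps topoisomerase II on broken DNA. The untreated library was labelled 0 h. Each condition was a single library, so no test between conditions was possible, and drug, time in culture and culture itself cannot be told apart.

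In each domain a stretch of DNA methylated in only 1 germ line, the imprinting control region, sets which parental copy is active. The zinc finger protein ZFP57 and its partner TRIM28 keep that methylation through early development, together with the DNA methyltransferases. Several domains hold a long non-coding RNA that silences its neighbours on the same chromosome. Many protein-coding members act on fetal growth and the placenta, with paternally expressed genes often promoting growth and maternally expressed genes often restraining it. Imprints are known to be unstable in cultured mouse pluripotent cells. The counts do not separate the parental copies, so a level below is the sum of both, and the parent named for a gene is background. In bulk RNA, fewer cells making a transcript and less transcript per cell cannot be told apart.

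The libraries held 38561292 reads (Adriamycin) and 41820999 reads (untreated) on genes. Levels are given as CPM, counts per 1000000 reads after TMM scaling of the library sizes, and where genes are compared with each other as CPM per kb of exon. The log2 ratio is Adriamycin over untreated with a pseudocount of 0.5 read. Its interval in parentheses is an exact 95% counting interval, which covers counting error only and is too narrow where read mates or PCR copies were counted separately. A gene whose libraries average 1 CPM or more is called measured, and a gene at a ratio of 2-fold or more is called higher or lower.

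Of the 41 genes 37 were measured, 4 of them higher, 7 lower and 26 neither. The higher ones were Nap1l5, Zim1, Magel2 and Slc22a18, and the lower ones Rtl1, Peg10, Mest, Phlda2, Snrpn, Kcnq1ot1 and Ube3a. Of the measured imprinted genes 10.8% were higher and 18.9% lower, against 17.0% higher and 6.95% lower among all 14871 measured genes. The median log2 ratio was 0.08 for the 37 imprinted genes and -0.03 for all measured genes. With library sizes scaled to total counts 6 imprinted genes were higher and 5 lower, or 16.2% and 13.5%, against 19.6% higher and 4.85% lower among all genes. With upper-quartile factors 4 were higher and 10 lower, or 10.8% and 27.0%, against 15.1% higher and 9.39% lower among all genes, and the median of the imprinted genes was -0.04. Whether more imprinted genes were higher or lower thus changed with the scaling. Relative to TMM, total counts moved the median of all genes by 0.15 and upper-quartile factors by -0.12. The log2 ratios of the 37 genes ran from -1.97 (Rtl1) to 2.57 (Nap1l5), and without these genes from -1.84 (Peg10) to 2.28 (Zim1).

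The background varies with level, so the genes were also read by their mean over both libraries. At 1 to 5 CPM, where 31.8% of all measured genes were higher and 9.51% lower, Nap1l5 was higher and Kcnq1ot1 and Rtl1 were lower among 7 imprinted genes. At 5 to 20 CPM, where 19.9% of all genes were higher and 6.12% lower, Slc22a18, Zim1 and Magel2 were higher and Snrpn was lower among 12. At 20 to 100 CPM, where 10.3% of all genes were higher and 4.94% lower, 0 were higher and Phlda2, Mest and Ube3a were lower among 13. Above 100 CPM, where 7.02% of all genes were higher and 8.89% lower, 0 were higher and Peg10 was lower among 5. The higher imprinted genes were all under 20 CPM, where the share of higher genes was also larger among all measured genes. The lower imprinted genes were found in every band. Nap1l5 and Rtl1 passed the filter only through the library in which they were high, since each was under 1 CPM in the other. Igf2, Airn, Asb4 and Rasgrf1 did not pass it. They had at most 46 reads in either library, and the interval of each ratio spanned no difference.

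**Figure D1:**
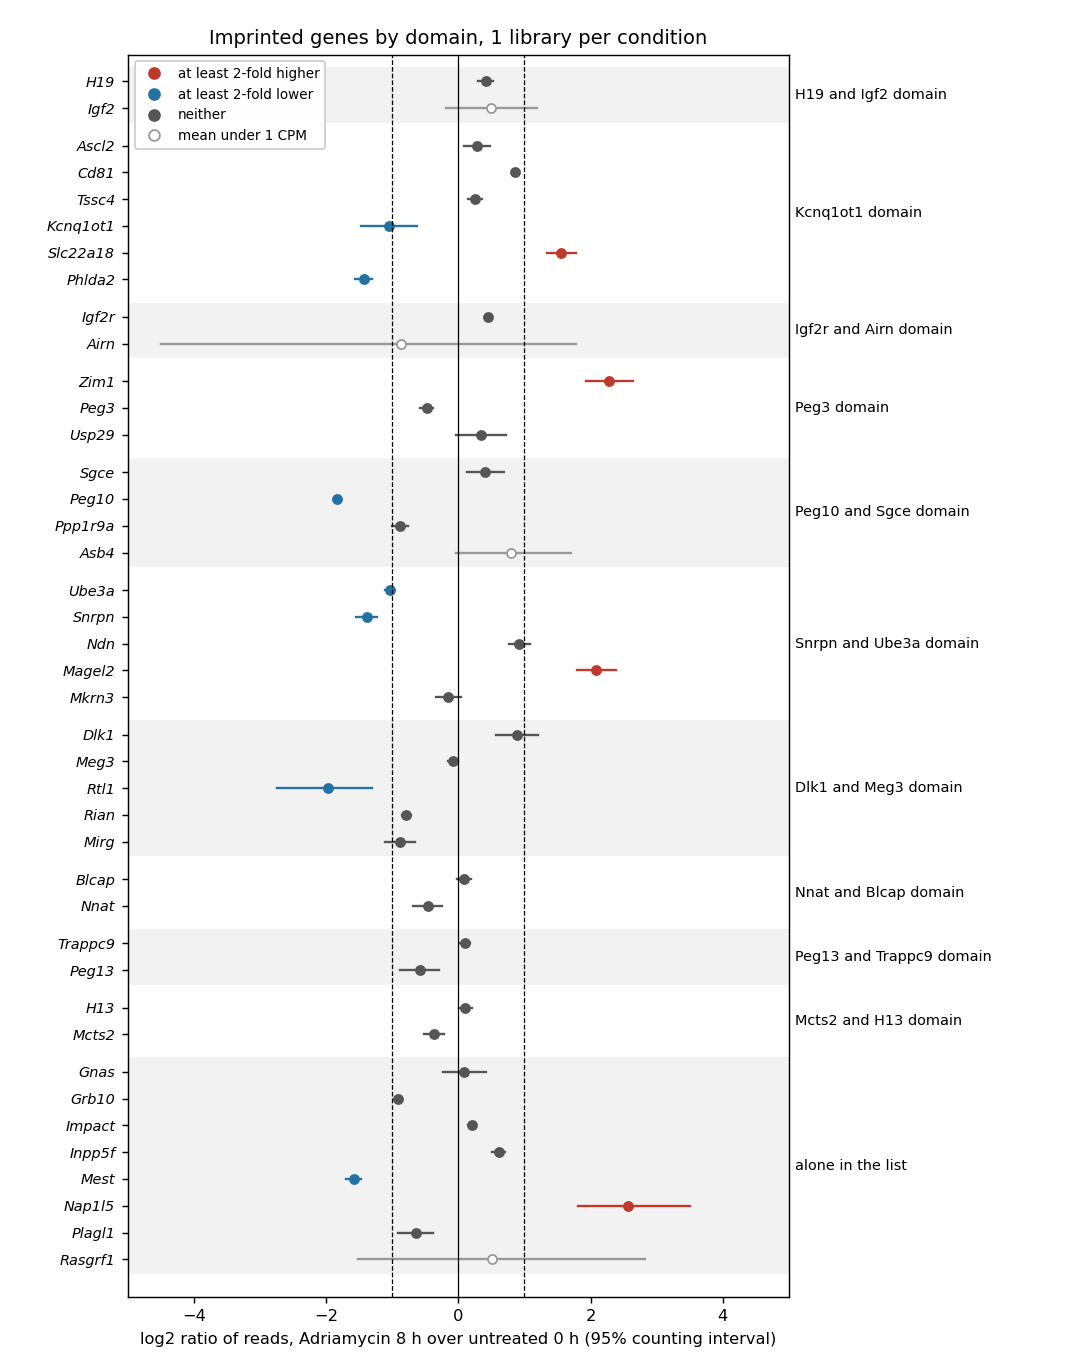
Log2 ratio of each of the 41 imprinted genes (x axis, Adriamycin over untreated), by domain with colours for at least 2-fold higher (red), at least 2-fold lower (blue) and neither (grey). Points are ratios, bars 95% counting intervals, dashed lines 2-fold, open points genes under a mean of 1 CPM. Within the Kcnq1ot1 domain, and within that of Snrpn and Ube3a, some genes lie beyond 2-fold on the left and others on the right.

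The 3 imprinted genes at least 4-fold apart were all higher in the Adriamycin library, and the 250 bases before their RefSeq start (build GRCm38.p6, transcribed strand, 5′ to 3′) are shown because promoters of several imprinted genes are control regions bound by ZFP57. Capitals mark the ZFP57 motif TGCCGC, searched on both strands, so that it reads GCGGCA when it lies on the opposite one.
Nap1l5: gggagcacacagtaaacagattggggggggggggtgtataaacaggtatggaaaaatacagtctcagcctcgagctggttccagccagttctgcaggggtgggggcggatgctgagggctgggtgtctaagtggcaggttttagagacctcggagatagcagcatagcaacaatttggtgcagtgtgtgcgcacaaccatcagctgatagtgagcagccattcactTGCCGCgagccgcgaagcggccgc
Zim1: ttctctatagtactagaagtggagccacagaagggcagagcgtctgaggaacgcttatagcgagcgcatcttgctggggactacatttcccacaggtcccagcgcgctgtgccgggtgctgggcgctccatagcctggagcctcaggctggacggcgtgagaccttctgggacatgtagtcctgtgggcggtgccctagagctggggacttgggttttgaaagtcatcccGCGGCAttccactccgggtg
Magel2: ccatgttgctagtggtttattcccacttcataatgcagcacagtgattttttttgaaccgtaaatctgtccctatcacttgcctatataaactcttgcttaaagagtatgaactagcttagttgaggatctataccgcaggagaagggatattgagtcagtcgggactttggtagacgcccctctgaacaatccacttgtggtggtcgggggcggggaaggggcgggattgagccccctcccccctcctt
The windows lie at chr6:58907127-58907376 (minus strand) for Nap1l5, chr7:6696433-6696682 (minus strand) for Zim1 and chr7:62376729-62376978 (plus strand) for Magel2. The motif occurs once in the first 2 windows and not in that of Magel2, and Nap1l5 has another copy 28 bases into the transcript. CG pairs number 10 in the printed 250 bases of Nap1l5, 14 in those of Zim1 and 7 in those of Magel2. With the 50 bases after the start included, they number 17, 20 and 10. Of the 34 imprinted genes with an entry in the RefSeq promoter table (windows of 300 bases, 50 of them after the start), 10 held TGCCGC, or 29.4%, against 13.1% of 27025 genes. These were Grb10, Igf2, Mcts2, Meg3, Mest, Nap1l5, Nnat, Plagl1, Snrpn and Zim1. Of them Nap1l5 and Zim1 were higher and Mest and Snrpn lower, and Igf2 was not measured. Among all measured genes 17.0% were higher and 6.95% lower. So few calls cannot show whether genes with the letters share a direction. Over 300 bases, the median number of CG pairs was 15 in the 49 windows of imprinted genes and 7 in all 32851 windows. TGCCGC itself holds a CG pair, and a gene counted if any of its windows held the motif. The shares above are matched neither for CG pairs nor for windows per gene. A p53 response element, a pair of decamer sites up to 13 bases apart, was in the windows of 0 of the 34 genes and of 20 of the 27025 (0.0740%). Only exact matches were counted, and with so rare a match 0 of 34 genes is uninformative. These matches describe letters in a window and say nothing of binding.

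Peg10 stood at the top of the levels in untreated cells and had the largest difference in reads of the 41 genes. Peg10 (chromosome 6, 4747306 to 4760517, GRCm39) is a paternally expressed gene derived from a retrotransposon and needed for the placenta. It had 10812 reads in the Adriamycin library and 38008 in the untreated one, or 267 CPM with Adriamycin and 956 CPM without, a log2 ratio of -1.84 (-1.87 to -1.81). That is 3.58-fold lower, and its share of all reads on the 41 genes was 13.3% with Adriamycin and 35.6% without. Sgce, the gene of epsilon-sarcoglycan, a muscle and brain membrane protein, starts on the other strand, with 98 bases between the annotated ends of both genes. Sgce had 261 reads with Adriamycin and 193 without, a log2 ratio of 0.41 (0.13 to 0.68). The intervals of these neighbours, which are known to share a methylated promoter region, did not overlap. Ppp1r9a, which encodes the actin-binding protein neurabin, had 907 reads with Adriamycin and 1646 without, a log2 ratio of -0.89 that passed 2-fold with upper-quartile factors. Asb4, an ankyrin repeat gene at the far end of the domain, had 34 reads with Adriamycin and 19 without. The 7 other measured genes within 500 kb included none at 2-fold in either direction and had a median of 0.17.

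Mest, farther along chromosome 6 (30723546 to 30748464), was lower too. It is a paternally expressed gene for an enzyme of the alpha/beta-hydrolase fold that promotes fetal growth. It had 905 reads in the Adriamycin library against 2665 in the untreated one, a log2 ratio of -1.59 (-1.70 to -1.48). Exons of Copg2 on the opposite strand cover 23.1% of the exon length of Mest. Copg2 itself had 3884 reads with Adriamycin and 4059 without, a log2 ratio of -0.09. Reads in the shared part are not counted for either gene by default.

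The 5 genes of the Snrpn and Ube3a domain on chromosome 7, the mouse counterpart of the human Prader-Willi and Angelman region, split in both directions. Snrpn (59632243 to 59789967), which encodes a small nuclear ribonucleoprotein and whose promoter is the control region, had 420 reads with Adriamycin and 1078 without. Its log2 ratio was -1.39 (-1.55 to -1.22), 2.61-fold lower, with 34.1% of its exon length shared with other genes. The overlapping gene Gm38393 had 202 reads with Adriamycin and 554 without, a log2 ratio of -1.48. Snhg14, the long non-coding transcript that runs on from Snrpn and silences Ube3a in neurons, had 434 reads with Adriamycin against 1035 without, a log2 ratio of -1.28. Ube3a (58878498 to 58961284), a ubiquitin ligase gene that is maternally expressed in neurons and active from both copies elsewhere, had 1986 reads with Adriamycin and 3981 without. Its log2 ratio was -1.03 (-1.11 to -0.95), which did not reach 2-fold with total counts. Counting did not use strand, and Ube3a and Snhg14 share exon bases, so their reads cannot be fully told apart. Snrpn, Gm38393, Snhg14 and Ube3a, which follow each other along the chromosome and partly share exons, all had ratios below -1. The gene 9330162G02Rik, which overlaps exons of Ube3a on the opposite strand, had 49 reads with Adriamycin and 35 without. Its log2 ratio was 0.45.

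At the other end of the same domain Magel2 and Ndn had ratios above 0, whereas Mkrn3 and Peg12 did not. Magel2 (62026758 to 62031388), a MAGE family gene that acts in endosomal protein sorting, had 512 reads in the Adriamycin library and 118 in the untreated one. It was 4.24-fold higher, with a log2 ratio of 2.08 (1.80 to 2.39). Ndn, or necdin, another MAGE family gene and a brake on proliferation, had 907 reads with Adriamycin and 469 without, a log2 ratio of 0.92 (0.76 to 1.09) that passed 2-fold with total counts. Mkrn3, a ubiquitin ligase gene, had 447 reads with Adriamycin and 488 without, and the interval of its ratio spanned no difference. These genes are paternally expressed like Snrpn, but their ratios were not alike. Peg12, a paternally expressed gene just beyond Mkrn3, was 2.64-fold lower with 112 reads against 291 in untreated cells.

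The Kcnq1ot1 domain on distal chromosome 7 held 1 higher and 2 lower genes among 6. Of all measured genes 17.0% were higher and 6.95% lower. Phlda2 (143055282 to 143056887), which restrains growth of the placenta, had 703 reads in the Adriamycin library and 1858 in the untreated one. It was 2.69-fold lower, at a log2 ratio of -1.43 (-1.56 to -1.30). Its neighbour Slc22a18 (143027473 to 143053071), an organic cation transporter gene, had 719 reads with Adriamycin and 239 without. It was 2.95-fold higher, at a log2 ratio of 1.56 (1.35 to 1.78). These maternally expressed neighbours thus lay past 2-fold on opposite sides.

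Kcnq1ot1 (142757195 to 142850286), the paternally expressed non-coding RNA that silences this domain, had 71 reads with Adriamycin and 144 without over an annotated exon length of 93092 bases. Its log2 ratio was -1.04 (-1.48 to -0.63), and it was not lower by 2-fold with total counts or with a pseudocount of 5 reads. At 0.0188 CPM per kb with Adriamycin and 0.0389 CPM per kb without, it was among the lowest of the 41 genes per length. Cd81, a tetraspanin gene, was the highest gene per length in the Adriamycin library, with 18041 reads against 9786 in untreated cells and a log2 ratio of 0.85 (0.82 to 0.89). Tssc4, which encodes a spliceosome assembly factor, had 1740 reads with Adriamycin and 1436 without, a log2 ratio of 0.25 (0.15 to 0.35). Ascl2, a transcription factor of the placenta, had 470 reads with Adriamycin and 380 without and a log2 ratio of 0.28 (0.08 to 0.48). Cdkn1c, the gene of the CDK inhibitor p57, lies between Kcnq1ot1 and Slc22a18. It had 597 reads with Adriamycin and 543 without, a log2 ratio of 0.11. Osbpl5, an oxysterol-binding protein gene at the edge, was 6.89-fold higher, with 1752 reads against 249 in untreated cells.

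Next to this domain, H19 and Igf2 depend on a control region of their own. H19 (142129266 to 142131880), a maternally expressed non-coding RNA that restrains growth, had 1436 reads in the Adriamycin library and 1058 in the untreated one, a log2 ratio of 0.41 (0.30 to 0.53). Igf2, the fetal growth factor, had 46 reads with Adriamycin and 32 without, or 1.13 CPM with Adriamycin and 0.805 CPM without, and its mean of 0.97 CPM is just under the filter. Of its exon length, 64.5% is shared with other annotated genes, so its count misses part of the transcript. Neither gene passed 2-fold. Of the 7 other measured genes within 500 kb 4 were higher, against 17.0% of all measured genes. Among those 4, Ifitm10 (110 reads with Adriamycin and 0 without) and Th (85 with and 5 without) passed the filter only through the Adriamycin library. Within 200 kb 1 of 2 other measured genes was higher. Igf2r (chromosome 17, 12901293 to 12988551), the receptor that clears IGF2, had 10946 reads with Adriamycin and 7899 without, a log2 ratio of 0.44 (0.40 to 0.48). Airn, the antisense RNA that silences Igf2r on the paternal copy, had 2 reads with Adriamycin and 4 without, and its interval of -4.49 to 1.77 allows a change in either direction. Grb10 (chromosome 11, 11880508 to 11988683), an adaptor that restrains insulin and IGF signalling, had 6023 reads against 11179 in untreated cells. Its log2 ratio was -0.92 (-0.97 to -0.87), which passed 2-fold with upper-quartile factors.

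In the Dlk1 and Meg3 domain on chromosome 12 the ratios ran from -1.97 to 0.88. Rtl1 (109555627 to 109566764), a retrotransposon-derived gene of the placenta expressed from the paternal copy, had 22 reads with Adriamycin and 86 without. It was 3.92-fold lower, at a log2 ratio of -1.97 (-2.74 to -1.31). Its exons overlap microRNA genes such as Mir127 and Mir136 on the opposite strand, whose host transcript is maternal, so reads of the shared 8.40% were left uncounted, and elsewhere in Rtl1 reads of both strands were counted. Dlk1, a membrane ligand related to the Notch ligands and also paternal, had 243 reads in the Adriamycin library and 129 in the untreated one, a log2 ratio of 0.88 (0.57 to 1.21) that passed 2-fold with total counts.

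The 3 non-coding genes of that domain are maternally expressed from 1 strand and are often viewed as parts of a common transcription unit. Meg3 had 3058 reads in the Adriamycin library and 3172 in the untreated one, a log2 ratio of -0.08 (-0.15 to -0.01), which was above 0 with total counts. Rian, which carries many small nucleolar RNAs, had 2475 reads with Adriamycin and 4187 without, a log2 ratio of -0.79 (-0.86 to -0.71). Mirg, which carries a large microRNA cluster, had 254 reads with Adriamycin and 459 without, a log2 ratio of -0.88 (-1.11 to -0.66) that passed 2-fold with upper-quartile factors. The intervals of Rian and Mirg overlapped each other and not that of Meg3, which lies first. Begain, a gene beside the domain with an isoform imprinted in sheep, was 10.2-fold higher with 1934 reads against 185 in untreated cells.

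The Peg3 domain on proximal chromosome 7 held the gene Zim1 (6674268 to 6699449), a maternally expressed zinc finger gene. Zim1 had 397 reads with Adriamycin and 80 without, 4.84-fold higher, at a log2 ratio of 2.28 (1.93 to 2.65). Peg3, a paternally expressed zinc finger gene with roles in maternal behaviour and cell death, had 1633 reads with Adriamycin and 2236 without, a log2 ratio of -0.48 (-0.57 to -0.39). Usp29, a ubiquitin-specific protease gene that starts on the other strand with 146 bases between the annotated ends, had 136 reads with Adriamycin and 105 without. Its log2 ratio was 0.34 (-0.03 to 0.73), so the interval spanned no difference and did not overlap that of Peg3. Of 16 other measured genes within 500 kb, 1 was higher and 2 were lower.

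Nap1l5 (chromosome 6, 58882218 to 58884061), a retrogene of a nucleosome assembly protein, sits inside Herc3 on the opposite strand. It had 93 reads in the Adriamycin library and 15 in the untreated one, 5.92-fold higher, at a log2 ratio of 2.57 (1.81 to 3.50). Herc3, a ubiquitin ligase gene, had 1203 reads with Adriamycin and 1138 without, a log2 ratio of 0.05 (-0.07 to 0.17). Herc3 shares no exon bases with Nap1l5, and the ratio of the host did not follow that of the inner gene.

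The other nested pairs showed smaller gaps of the same kind but of opposite sign, with the paternally expressed inner gene below its host. Nnat, or neuronatin, a small membrane protein gene inside Blcap on chromosome 2, had 289 reads with Adriamycin and 391 without, a log2 ratio of -0.46 (-0.69 to -0.24). Blcap, a membrane protein gene linked to apoptosis, had 1583 reads with Adriamycin and 1467 without, a log2 ratio of 0.08 (-0.02 to 0.19). Mcts2, a retrogene of Mcts1 inside H13 on chromosome 2 and uncertain because of its similarity to that source, had 656 reads with Adriamycin and 828 without, a log2 ratio of -0.36 (-0.51 to -0.21). H13, a signal peptide peptidase gene, had 1749 reads with Adriamycin and 1594 without, a log2 ratio of 0.11 (0.01 to 0.20). Peg13, a non-coding RNA inside Trappc9 on chromosome 15, had 162 reads with Adriamycin and 238 without, a log2 ratio of -0.58 (-0.88 to -0.29). Trappc9, a vesicle trafficking gene, had 2821 reads with Adriamycin and 2589 without, a log2 ratio of 0.10 (0.02 to 0.17). In each pair the intervals did not overlap, none reached 2-fold, and the hosts Blcap, H13 and Trappc9 lay below 0 with upper-quartile factors.

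The remaining genes stood alone in the list. Plagl1 (chromosome 10, 12936248 to 13007438), a zinc finger factor that promotes cell cycle arrest and regulates other imprinted genes, had 203 reads with Adriamycin against 312 in untreated cells, a log2 ratio of -0.65 (-0.91 to -0.39). Inpp5f (chromosome 7), a phosphoinositide phosphatase gene, had 2064 reads with Adriamycin and 1325 without, a log2 ratio of 0.61 (0.51 to 0.71). Impact (chromosome 18), a regulator of the translation kinase GCN2, had 5648 reads with Adriamycin and 4819 without, a log2 ratio of 0.20 (0.15 to 0.26). Gnas (chromosome 2), the gene of the stimulatory G protein alpha subunit, had 163 reads with Adriamycin and 150 without. The interval of Gnas spanned no difference, and 21.6% of its exon length is shared with antisense genes, which leaves its count incomplete. Rasgrf1 (chromosome 9), a Ras exchange factor gene, had 6 reads with Adriamycin and 4 without.

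**Figure D2:**
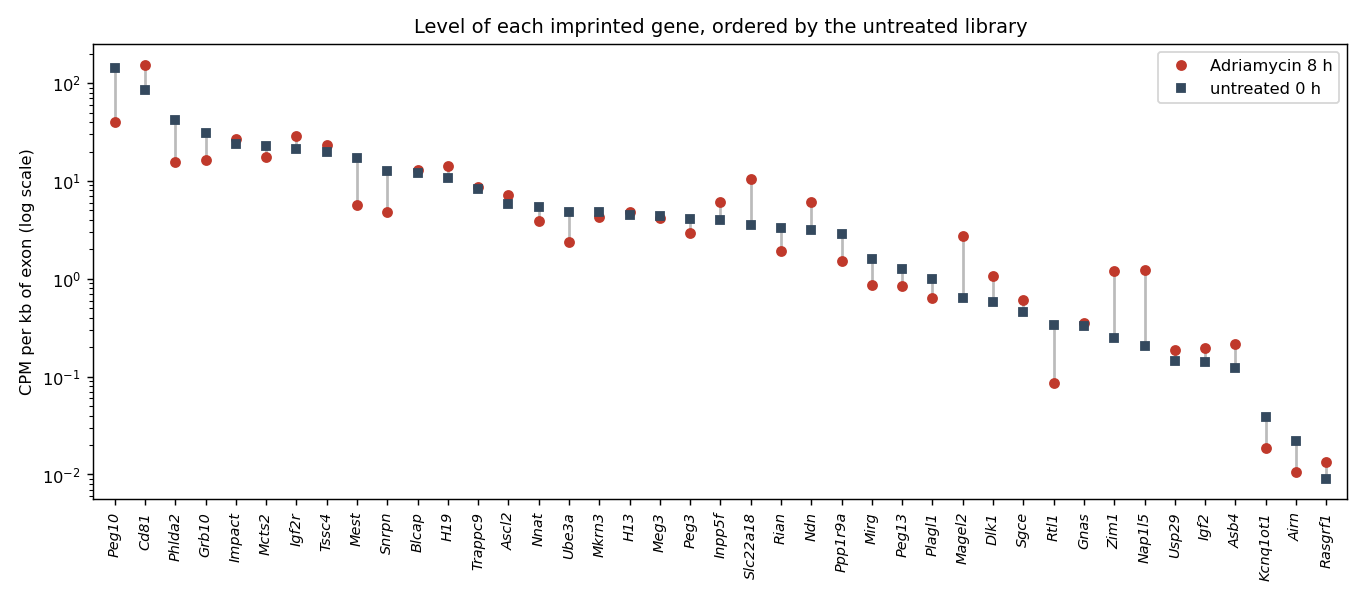
Level of each imprinted gene in CPM per kb of exon (y axis, log scale) in the Adriamycin library (circles) and the untreated library (squares), ordered from left to right by the untreated level. Peg10 and Cd81 are the highest in both libraries, in opposite order, and Kcnq1ot1, Airn and Rasgrf1 the lowest.

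Per exon length the levels spanned several orders of magnitude. In the Adriamycin library they ran from 0.0107 to 155 CPM per kb over the 41 genes, and in the untreated library from 0.00909 to 143 CPM per kb. The median over the 37 measured genes was 4.33 CPM per kb with Adriamycin and 4.41 CPM per kb without. At least 10 CPM per kb were reached by 11 genes with Adriamycin and 12 without, and 12 genes with Adriamycin and 13 without lay under 1 CPM per kb. Peg10 ranked 2 with Adriamycin and 1 without, at 40.0 CPM per kb with Adriamycin and 143 CPM per kb without. Cd81 ranked 1 with Adriamycin and 2 without, at 155 CPM per kb with Adriamycin and 85.5 CPM per kb without. Slc22a18 ranked 11 with Adriamycin and 22 without. Mest ranked 16 with Adriamycin and 9 without. With 1 library each, no spread is known against which neighbours in this order could be separated.

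Grouped by the parent usually expressed, 19 measured paternal genes included 2 higher and 5 lower, and 18 maternal genes 2 higher and 2 lower. The median log2 ratio was -0.36 for paternal and 0.09 for maternal genes, and the ranges overlapped. Summed over the 22 listed paternal genes the level was 630 CPM with Adriamycin and 1350 CPM without. Without Peg10 these sums were 363 CPM with Adriamycin and 394 CPM without, so most of the gap was that gene. The 19 maternal genes summed to 1369 CPM with Adriamycin and 1337 CPM without. Of the 6 measured non-coding genes 0 were higher and 1, Kcnq1ot1, was lower (16.7%, against 6.95% of all measured genes). Their median was -0.68.

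**Figure D3:**
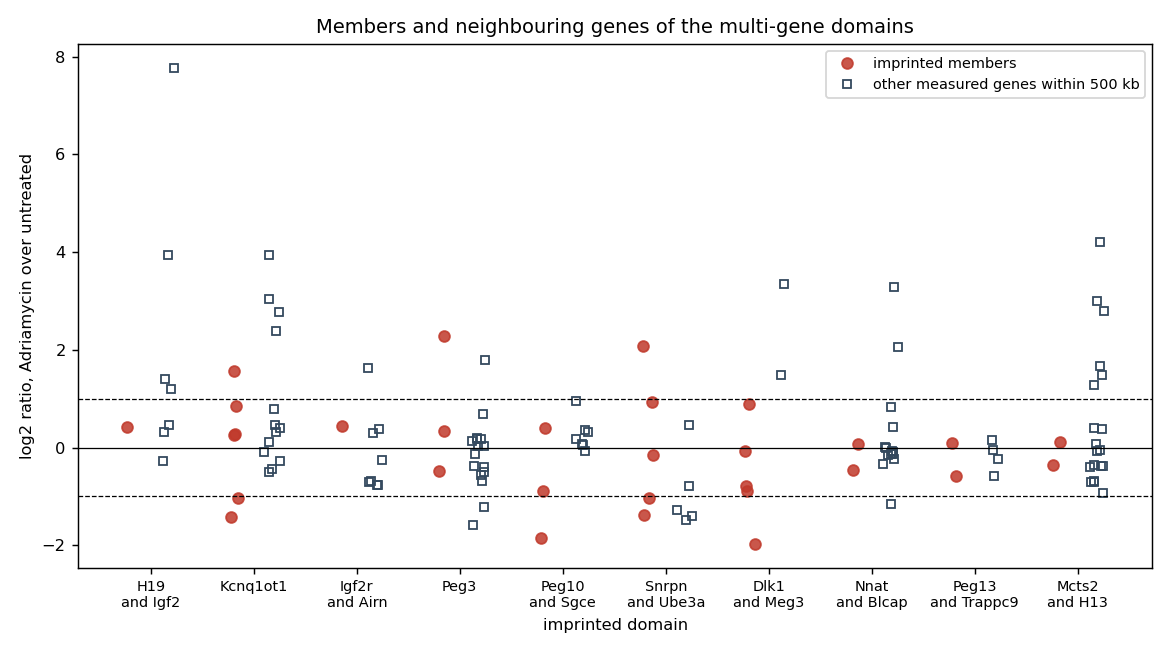
Log2 ratio (y axis, Adriamycin over untreated) of measured imprinted genes (filled circles) and of other measured genes within 500 kb (open squares) for the 10 domains with more than 1 listed gene. Dashed lines mark 2-fold, and a gene near 2 domains is drawn in both. The members of the Snrpn and Ube3a domain span 3.47 log2 units, and the point at 7.77 is Ifitm10, with 110 reads with Adriamycin and 0 without, whose fitted ratio is no bound.

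Genes around the domains were close to the background. Within 500 kb of any of the 18 domains lay 143 other measured genes, of which 17.5% were higher and 6.99% lower, with a median log2 ratio of 0.05. Some of them are imprinted too, such as Cdkn1c, Osbpl5, Peg12 and Snhg14. The widest domain was that of Snrpn and Ube3a, whose members ranged over 3.47 log2 units, and the members of the Kcnq1ot1 domain ranged over 2.99 units. The members of the Nnat and Blcap, the Peg13 and Trappc9, and the Mcts2 and H13 domains ranged over 0.55, 0.68 and 0.47 units. Within 500 kb of the Dlk1 and Meg3 domain only Wdr25, with 1852 reads against 653 in untreated cells, and Begain were measured, both higher. Dio3, an imprinted gene just beyond that distance, had 68 reads with Adriamycin and 92 without. Its log2 ratio was -0.46, and the interval spanned no difference.

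Another 48 symbols of imprinted genes were listed beside the 41, of which 46 matched and 31 were measured. Of these 2 were higher and 5 lower, or 6.45% and 16.1%, against 17.0% and 6.95% of all measured genes. Their median log2 ratio was -0.18. Both higher ones, Begain and Osbpl5, are described above. The lower ones were led by Sfmbt2, a Polycomb-related gene of the placenta, which was 5.18-fold lower with 486 reads against 2473 in untreated cells. Cobl, an actin nucleator gene near Grb10, was 2.55-fold lower with 6156 reads against 15405 in untreated cells. Peg12, Snhg14 and Nespas, the antisense RNA of Gnas with 38 reads against 99 in untreated cells, were the others. Nespas was named after its value was seen.

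The 34 listed genes that keep or remove imprints or DNA methylation were all measured, 0 higher and 11 lower, with a median log2 ratio of -0.60. That is 32.4% lower, against 6.95% of all genes, though with total counts 6 were lower, against 4.85% of all genes. Zfp42, or Rex1, was 3.69-fold lower with 6395 reads against 23174 in untreated cells. It is also a stem cell marker, and it is known to bind the control regions of some imprinted genes. Tet2, which oxidises methylated cytosine, was 3.18-fold lower with 5104 reads against 15908 in untreated cells. The methyltransferase gene Dnmt3a was 2.41-fold lower with 3110 reads against 7339 in untreated cells, and its cofactor gene Dnmt3l 2.38-fold lower with 15641 reads against 36472 in untreated cells. Zfp57, Trim28 and Dnmt1 are named for their role, after their values were seen. Zfp57 had 8779 reads with Adriamycin and 18121 without, a log2 ratio of -1.07 (-1.11 to -1.04), which did not reach 2-fold with total counts (-0.93). Trim28 had 78487 reads with Adriamycin and 175934 without, a log2 ratio of -1.19. Dnmt1, the methyltransferase that copies methylation at replication, had 24174 reads with Adriamycin and 21123 without, a log2 ratio of 0.17 (0.14 to 0.19). These values are transcript levels, and DNA methylation was not measured.

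**Figure D4:**
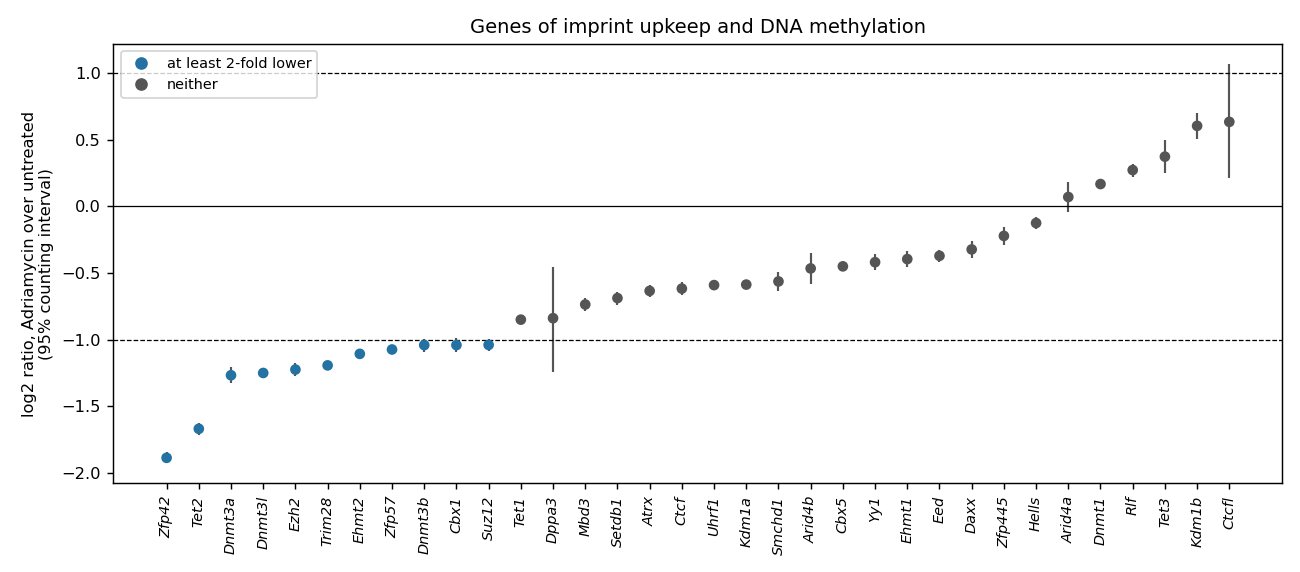
Log2 ratio (y axis, Adriamycin over untreated) of the 34 listed genes of imprint upkeep and DNA methylation, in rising order. Bars are 95% counting intervals and dashed lines 2-fold. The 11 genes at the left lie past 2-fold, from Zfp42 at -1.89 (6 of them also with total counts), and 28 of the 34 lie below 0.

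Markers were read beside these values, where 17.0% of all measured genes were higher and 6.95% lower. All 10 embryonic stem cell markers were present, summing to 4104 CPM with Adriamycin and 7262 CPM without, with 6 of them lower. Pou5f1, the defining factor, had 604 CPM with Adriamycin and 862 CPM without. Of 16 fibroblast and feeder markers 8 were measured and 4 higher (Col1a1, Col6a1, Fbln2 and Bgn), with a sum of 133 CPM against 51.2 CPM in untreated cells. The other 4 measured ones were neither, at log2 ratios of -0.16 (Pdgfra), -0.14 (Thy1), 0.04 (Col1a2) and 0.74 (Col6a2). Col3a1, Lum, Dcn, Postn and Prrx1 had 0 reads in both libraries, which allows up to 0.0740 CPM with Adriamycin and 0.0754 CPM without. Of 12 endoderm markers 9 were measured with 0 past 2-fold, summing to 187 CPM with Adriamycin and 210 CPM without, and the others were Apoa1 with 58 reads with Adriamycin and 13 without, Afp with 7 reads with Adriamycin and 2 without, and Ttr with 4 reads with Adriamycin and 8 without. Of 12 trophoblast markers 7 were measured, 2 higher and 1 lower, summing to 58.5 CPM with Adriamycin and 60.2 CPM without, and Tpbpa and Prl3d1 had 0 reads in both. Within that sum the markers ran both ways, with Gcm1 at 181 reads with Adriamycin and 11 without, Krt7 at 346 reads with Adriamycin and 34 without, and Eomes at 119 reads with Adriamycin and 609 without. Of 9 neural markers 7 were measured, 1 higher and 2 lower, summing to 138 CPM with Adriamycin and 201 CPM without, and Dcx had 0 reads in both. Neurod1 had 1455 reads with Adriamycin and 208 without, Pax6 had 25 reads with Adriamycin and 151 without, and Elavl3 had 612 reads with Adriamycin and 1344 without. Among the markers past 2-fold, Col6a1, Gcm1 and Krt7 passed the filter only through the Adriamycin library, and Pax6 only through the untreated one. The part of other cell types in the values of the imprinted genes was not tested.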

How the data were processed

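RNA of 2 libraries, 1 per condition, was analysed. The authors deposited a table of unnormalised gene counts for each library. Per the file headers, featureCounts 2.0.3 counted reads from pairs with both ends aligned over the exons of Ensembl annotation release 105 on GRCm39. It was run with no strand option and no option for reads on several genes or places. No option joins mates, and a count of 2 was more frequent than 1, so mates may be counted separately. Intervals were therefore also computed on counts divided by 2. The submitters' processing notes name HISAT2 2.0.4, featureCounts 1.6.0, DESeq2 1.16.1 and the builds mm9 and mm10, which differ from the headers. Names of the GENCODE annotation for mm10 matched 52081 of 55414 identifiers, and all coordinates of genes come from the deposited tables.

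TMM factors (edgeR 4.0.16 in R 4.3.3) were 1.05 for the Adriamycin and 0.951 for the untreated library. Ratios, exact conditional binomial intervals (Clopper-Pearson), exon overlaps and neighbours were computed with scipy 1.17.1, numpy 2.4.6 and pandas 2.3.3 under Python 3.11.15, and the interval code was tested on simulated data. With 1 library each, conditions were compared by size alone. Alternatives were total counts, upper-quartile factors, DESeq2 1.42.0 size factors, a pseudocount of 5 reads, other filters, a threshold of 1.5-fold and a neighbour distance of 200 kb. All 41 genes are named, and from the lists of other imprinted and upkeep genes up to 4 higher and 4 lower by the distance of the interval from no difference, besides genes whose exons overlap a member. Markers and other genes near a domain were named after their values were seen. The members and lists were chosen with earlier results of these data known. Domains and the usual parental copy follow general knowledge and not the files. Promoter sequences are from RefSeq on GRCm38.p6.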

Additional observations from a re-analysis of the deposited data

How the results depend on the processing

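No paired analysis was possible because each condition has 1 library, and for the same reason no replicate could be left out. With the threshold at 1.5-fold, 8 of the 37 measured imprinted genes were higher and 12 of the 37 lower. Among all measured genes 25.7% were higher and 18.9% lower. The count of higher genes was 3 to 6 and that of lower genes 5 to 10 over the scalings, filters and pseudocounts tried at 2-fold. DESeq2 size factors changed no call of an imprinted gene, and total counts changed 4 (Dlk1, Kcnq1ot1, Ndn and Ube3a), upper-quartile factors 3 (Grb10, Mirg and Ppp1r9a) and a pseudocount of 5 reads 1 (Kcnq1ot1). With no filter beyond 1 read, the median log2 ratio was -0.21 in the Igf2r and Airn domain (0.44 with the filter) and -0.24 in the Peg10 and Sgce domain (-0.89), since Airn and Asb4 enter. With a minimum of 5 CPM it was 0.10 in the Peg13 and Trappc9 domain (-0.24) and 0.90 in the Peg3 domain (0.34), since Peg13 and Usp29 leave. The median of the genes around the Dlk1 and Meg3 domain, 2.42 on 2 genes, was -0.35 with no filter, where more genes enter. With total counts 6 upkeep genes were lower in place of 11 (Cbx1, Dnmt3b, Ehmt2, Suz12 and Zfp57 did not reach 2-fold), an alternative chosen after seeing the data, as were the shares of all genes under other scalings. On counts divided by 2 the interval of 29 of the 37 measured genes excluded no difference, against 33 as deposited, and for all 11 called genes it did so. The intervals of Ascl2, Meg3, H13 and Trappc9 excluded no difference only on the counts as deposited. For Airn, Rasgrf1, Asb4 and Igf2, with at most 46 reads in a library, the interval includes no difference.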
